A study of Homo sapiens with 6 samples.

Results

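The IL6 family is represented here by 10 genes taken by symbol from a table of 26255 gene symbols. They are 6 ligand genes (IL6, IL11, LIF, OSM, CLCF1 and CTF1) and 4 receptor genes (IL6ST, IL6R, IL11RA and LIFR). RNA-seq had been performed on MDA-MB-231, a line of human breast cancer cells, in 2 groups of 3 libraries. Cells of the shNT group carried a control hairpin, and those of the shGPR81 group carried a hairpin against GPR81, the lactate receptor encoded by HCAR1. Both hairpins had been delivered by lentivirus and the cells of both groups selected with puromycin, so the groups share the vector and the selection. The labels do not say which of the shGPR81 lines was sequenced, nor whether the libraries came from separate cultures. The p-values below therefore measure the spread between libraries, which may be technical.

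The cytokines of the 6 ligand genes act through receptors that share the signalling subunit gp130, the product of IL6ST. IL6 and IL11 each need a receptor of their own, encoded by IL6R and IL11RA, whereas LIF, CTF1 and CLCF1 signal through gp130 paired with the LIF receptor, the product of LIFR. Ligand binding activates JAK kinases and the transcription factor STAT3. IL6 and IL11 from breast cancer cells are known to promote the formation of osteoclasts, and the study compared them in the context of tumor growth in bone. By RT-qPCR, another assay than the RNA-seq used here, it reports lower mRNA of both in a GPR81-silenced line.

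The values are FPKM, fragment numbers scaled by transcript length and library size, as deposited. Because of the scaling by length, levels of different genes can be compared. Depth is not given with FPKM. For 4090 of 15931 genes the values were whole multiples of the value of 1 read. This gave relative depths of 1 to 1.07 for the 6 libraries. With the longest GENCODE transcripts, the median over 2169 genes was about 11768734 to 12600552 reads per library. The quartiles of these estimates ran from 8312172 to 13898728 reads, so the depth is known only roughly. HCAR1 was at 0.968, 1.02 and 1.36 FPKM in shNT and at 0.978, 0.891 and 0.396 FPKM in shGPR81, and the groups overlapped. Its log2 fold change was -0.57 (SE 0.31, limma adjusted p = 0.38). When 1 library was left out, it ranged from -0.78 (shGPR81 replicate 1) to -0.22 (shGPR81 replicate 3). Taken as reads, the HCAR1 values summed to 129 in shNT and 92 in shGPR81. With depth corrected, the ratio was 0.677, with a 95% Clopper-Pearson interval of 0.513 to 0.892 that covers counting error only. The paper reports lower GPR81 by RT-qPCR and western blotting in its shGPR81 lines. The shGPR81 group is named below as it was labelled. Of 7 markers of mesenchymal breast cancer cells, VIM, CD44, MSN, CAV1, AXL and ANXA1 were abundant and CD109 stayed below 0.1 FPKM, and of 8 luminal genes ESR1, PGR and CDH1 were listed at 0 in all libraries. The other 5 luminal genes were detected, KRT8 at 132.4 to 185.3, KRT18 at 181.7 to 241.0 and EPCAM at 5.20 to 6.86 FPKM, and the sum of the 8 was 343.8 to 436.2 FPKM in shNT and 323.7 to 375.2 FPKM in shGPR81. The immune markers PTPRC, CD3E and ITGAM stayed below 0.1 FPKM, while the summed level of the 6 immune markers was 2.84 to 5.30 FPKM in shNT and 2.25 to 2.63 FPKM in shGPR81, most of it CD14. The part of these markers in the results was not tested.

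The promoters of IL6 and IL11 are shown because these are the cytokines that the study measured as osteolytic factors. Both sequences are from RefSeq (GRCh38.p14), run from 250 bases before the annotated start to the base before it, and are written 5′ to 3′ on the strand of the gene. Capitals mark matches to 3 of the 5 motifs that were searched. The IL6 promoter, chr7:22726950-22727199 on the plus strand, holds TTGCACAA (C/EBP, searched as TTGCNNAA) and GGATTTTCC (NF-kB, searched as GGANTTTCC), at bases -155 to -148 and -72 to -64 from the start. The IL11 promoter, chr19:55370464-55370713 on the minus strand, holds TGAGTCA (AP-1, searched as TGANTCA) at bases -96 to -90.
IL6: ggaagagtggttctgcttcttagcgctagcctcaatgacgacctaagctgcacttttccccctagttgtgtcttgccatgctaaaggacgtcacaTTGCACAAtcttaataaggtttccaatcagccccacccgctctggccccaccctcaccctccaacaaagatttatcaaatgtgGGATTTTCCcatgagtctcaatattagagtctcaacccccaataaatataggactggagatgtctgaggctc
IL11: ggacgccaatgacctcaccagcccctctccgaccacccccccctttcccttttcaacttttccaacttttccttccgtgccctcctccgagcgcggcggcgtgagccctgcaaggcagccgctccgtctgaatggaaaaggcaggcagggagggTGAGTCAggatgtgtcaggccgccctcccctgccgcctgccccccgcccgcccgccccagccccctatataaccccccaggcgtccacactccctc

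The same windows were searched on both strands in 27305 promoters. The C/EBP letters were present in 9.13% of them, STAT (TTCNNNGAA) in 6.78%, AP-1 in 6.60%, the cAMP response element TGACGTCA in 1.77% and NF-kB in 1.47%. GPR81 is coupled to a fall in cAMP. The exact letters TGACGTCA were in none of the 6 member promoters in the table (IL6, IL11, IL6ST, IL6R, IL11RA and LIFR). Partial or altered forms of the cAMP response element were not searched, so its absence is not shown. The IL6 promoter holds a part of it, ACGTCA, just before the C/EBP match. The NF-kB and C/EBP letters were each in 1 of the 6 promoters, that of IL6. AP-1 was in that of IL11 and STAT in that of LIFR (TTCCTTGAA), and no motif overlapped another. The promoters of LIF, OSM, CLCF1 and CTF1 were not analysed here. The letters were chosen with the well-studied IL6 promoter in mind, and a match describes letters in this window, not a site of binding.

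At the level of transcripts the family was dominated by IL11. Its mean over the 6 libraries was 84.3 FPKM, higher than that of 92.2% of the tested genes. LIF (26.4 FPKM) and the shared receptor subunit gene IL6ST (26.3 FPKM) followed, with ranges that overlapped each other. LIFR was at 11.2 FPKM, CLCF1 at 8.80 FPKM and CTF1 at 5.50 FPKM, each with a range that did not overlap its neighbours in this order. A step of 9.68 times separated CTF1 from IL11RA (0.568 FPKM), whose range overlapped that of IL6 (0.532 FPKM), and the range of IL6 overlapped that of IL6R (0.354 FPKM). OSM was last and nearly absent. Thus IL11 was the most abundant of the measured members, while the gene of its own receptor was 1 of the 4 lowest.

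**Figure D1:**
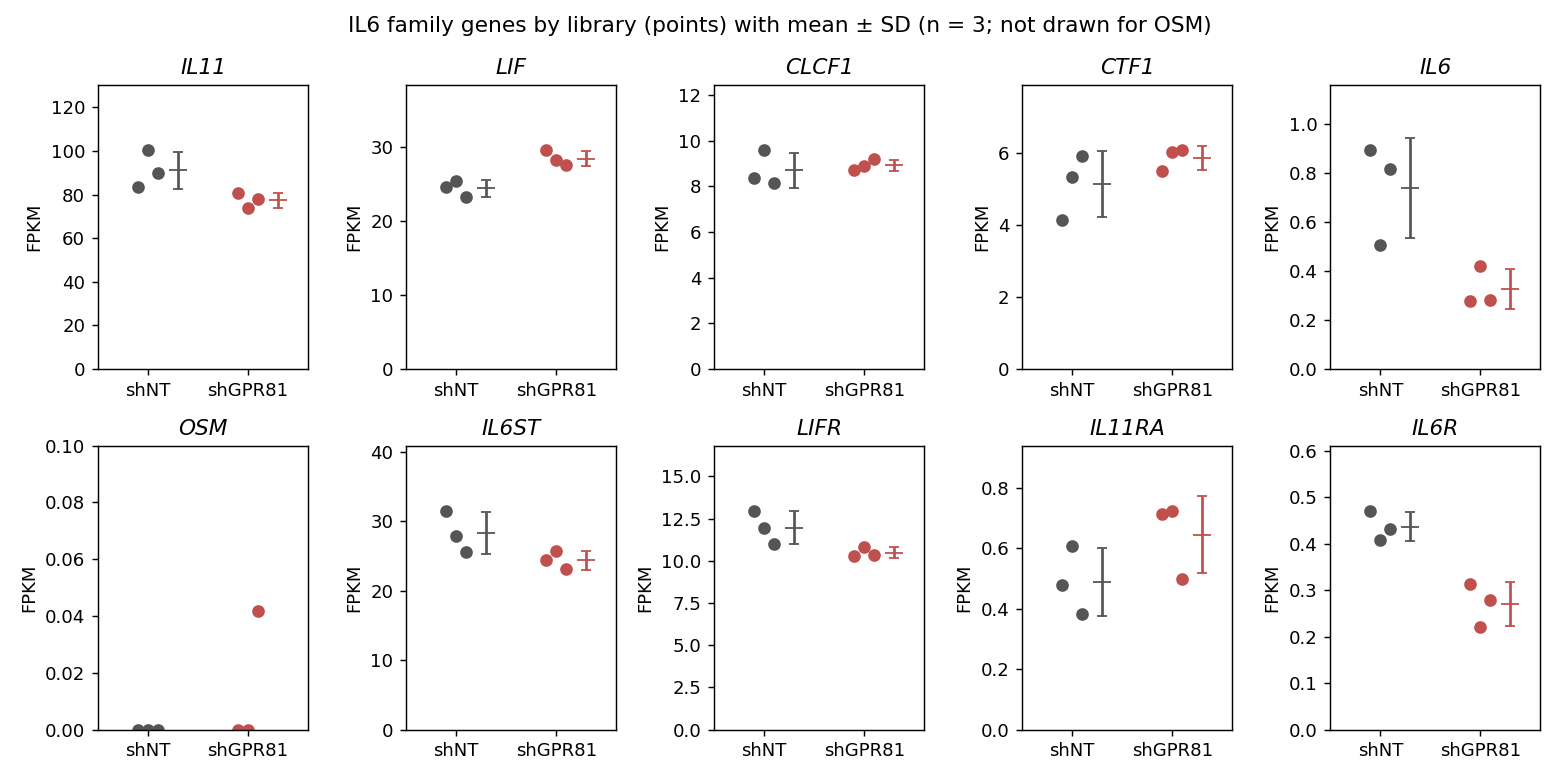
FPKM of the 10 genes (vertical axes, linear from 0, a separate scale for each gene) in the libraries of shNT (grey) and shGPR81 (red). Points are libraries and bars are mean ± SD (n = 3), not drawn for OSM. The groups do not overlap for IL11, LIF, IL6, LIFR and IL6R, and they overlap for the other genes.

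Of the 10 genes, 9 passed the filter on low values (0.1 FPKM in at least 3 libraries) and were tested, and OSM did not. None of the 9 passed an adjusted p under 0.05 with a fold change above 1.5 (limma on log2(FPKM + 0.1), Benjamini-Hochberg over all 14349 tested genes), where 2.54% of all tested genes did. None had an adjusted p under 0.05 at all, against 5.13% of tested genes. At an unadjusted p under 0.05 there were 6 members, IL6, IL11, IL6ST, IL6R and LIFR lower and LIF higher in shGPR81, where 19.5% of tested genes were past it, 9.43% lower and 10.1% higher. The groups did not overlap in 5 of the 9, a pattern found in 25.6% of tested genes. The median log2 fold change of the 9 genes was -0.19 and that of all tested genes 0.01. Fewer cells that express a gene and less RNA of it per cell cannot be told apart in these bulk libraries.

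**Figure D2:**
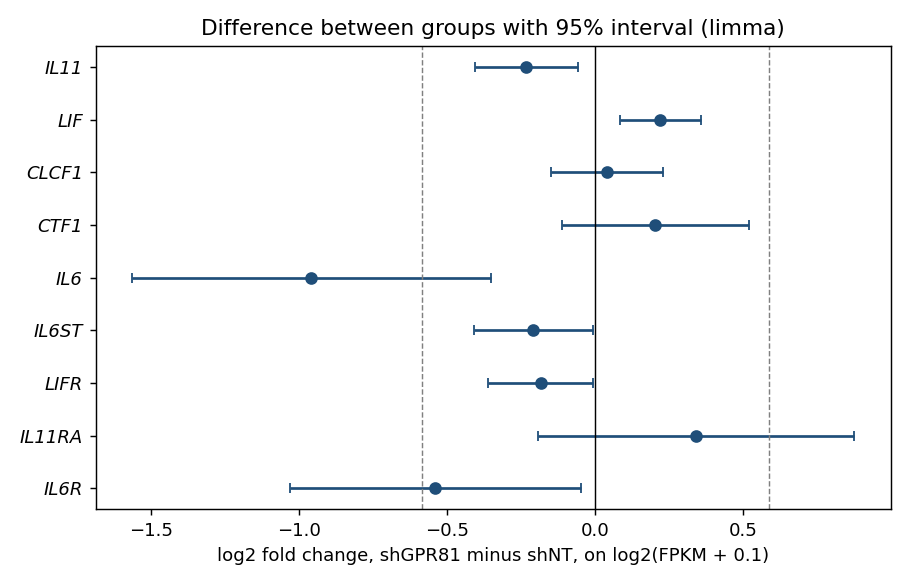
Log2 fold change of shGPR81 minus shNT on the log2(FPKM + 0.1) scale (horizontal axis) for the 9 tested members, with 95% intervals from limma. Dashed lines mark a fold change of 1.5 in either direction. IL6 lies lowest at -0.96 and IL11RA highest at 0.34, with the widest intervals among the members of low level.

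Among the ligands, IL11 was at 83.3, 100.2 and 90.1 FPKM in shNT and at 80.6, 73.9 and 77.8 FPKM in shGPR81. Every shGPR81 library was below every shNT library, although shNT replicate 1 lay only slightly above shGPR81 replicate 1. The means were 91.2 ± 8.53 and 77.4 ± 3.37 FPKM (SD, n = 3), a log2 fold change of -0.23 (SE 0.07, 95% interval -0.41 to -0.06, limma adjusted p = 0.138). The interval does not reach the fold change of 1.5 used for calls. In an exact permutation test (two-sided) p was 0.1, the minimum for 3 against 3 libraries. The gene spans 55875750 to 55881831 on chromosome 19 (GRCh37, minus strand), and no other annotated gene overlaps it.

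IL6 was at 0.891, 0.507 and 0.816 FPKM in shNT and at 0.277, 0.421 and 0.281 FPKM in shGPR81. The groups did not overlap, and shNT replicate 2 lay nearest to the other group. In whole multiples of 1 step the values were 12, 7 and 11 in shNT and 4, 6 and 4 in shGPR81. These are the smallest whole numbers that fit and are taken as reads, although the true reads could be a multiple of them. With depth corrected, their ratio was 0.443. The 95% Clopper-Pearson interval of 0.217 to 0.862 assumes these numbers and covers counting error only. The log2 fold change of IL6, -0.96 (SE 0.26, 95% interval -1.57 to -0.35), was the largest of the family in size and did not pass the test (limma adjusted p = 0.0879). With a pseudocount of 1 in place of 0.1 it was -0.38, because values this low are compressed by a larger pseudocount. IL6 lies on chromosome 7 from 22765503 to 22771621 (plus strand, GRCh37). STEAP1B and IL6-AS1 overlap it on the other strand. STEAP1B was listed at 0 in 5 libraries and at 0.0664 FPKM in shNT replicate 3, and IL6-AS1 is not among the gene symbols.

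LIF is a cytokine that maintains stem cells in culture and acts on bone cells. In contrast to IL11, it was higher in shGPR81 than in shNT: the values were 24.6, 25.4 and 23.2 FPKM in shNT and 29.5, 28.2 and 27.6 FPKM in shGPR81. All shGPR81 libraries were above all shNT libraries, and the means lay farther apart than the libraries within either group. The log2 fold change was 0.22 (SE 0.06, 95% interval 0.08 to 0.36), and the limma adjusted p of 0.0814 did not pass. The gene is on chromosome 22 from 30636442 to 30642748 on the minus strand (GRCh37), and the antisense genes LIF-AS1 and LIF-AS2 overlap it.

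CLCF1 and CTF1 encode the ligands cardiotrophin-like cytokine factor and cardiotrophin. CLCF1 was at 8.36, 9.56 and 8.16 FPKM in shNT and at 8.70, 8.87 and 9.18 FPKM in shGPR81, and the shGPR81 values lay within the range of shNT. Its log2 fold change was 0.04, with a 95% interval of -0.15 to 0.23 (limma adjusted p = 0.85). CTF1 was at 4.14, 5.34 and 5.92 FPKM in shNT and at 5.49, 6.04 and 6.07 FPKM in shGPR81. Its groups overlapped, and the shNT libraries were spread more widely (SD 0.910) than those of shGPR81 (SD 0.329). The log2 fold change of CTF1 was 0.20 (95% interval -0.11 to 0.52, limma adjusted p = 0.489), and it was 0.06 without shNT replicate 1 and 0.31 without shNT replicate 3. CLCF1 spans 67131639 to 67141648 on chromosome 11 (minus strand) and CTF1 spans 30907935 to 30914868 on chromosome 16 (plus strand, GRCh37). RAD9A, which overlaps CLCF1 on the other strand, was at 4.88 to 5.87 FPKM over the 6 libraries. An annotated gene without a symbol overlaps CLCF1 on the same strand and has no values here.

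OSM, the gene of oncostatin M, was listed at 0 in 5 libraries. In shGPR81 replicate 3 it was at 0.0416 FPKM, about 1 read by the length of its longest transcript. No fold was calculated. Its gene lies on the same chromosome as LIF, from 30658818 to 30662840 on chromosome 22 (minus strand, GRCh37).

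The makeup of the ligand transcripts was compared in each library. IL11 accounted for 68.7%, 71.1% and 70.3% of the summed FPKM of the 6 ligand genes in shNT and for 64.7%, 62.9% and 64.3% in shGPR81. LIF accounted for 20.3%, 18.0% and 18.1% in shNT and for 23.7%, 24.0% and 22.8% in shGPR81. Neither share overlapped between the groups, and as parts of 1 sum they are not independent of each other or of the levels above. The mean share of IL11 was 70.0% ± 1.20 in shNT and 64.0% ± 0.939 in shGPR81 (SD, n = 3), a difference of -6.04 percentage points (exact two-sided permutation test, p = 0.1, the smallest possible). The ratio of LIF to IL11 was 0.269 ± 0.0227 in shNT and 0.367 ± 0.0138 in shGPR81 (SD, n = 3). This ratio restates the opposite directions of these genes and is given as a description, without a test. The summed level itself, 121.2, 141.1 and 128.2 FPKM in shNT and 124.5, 117.4 and 120.9 FPKM in shGPR81, overlapped between the groups (exact permutation test, p = 0.2).

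**Figure D3:**
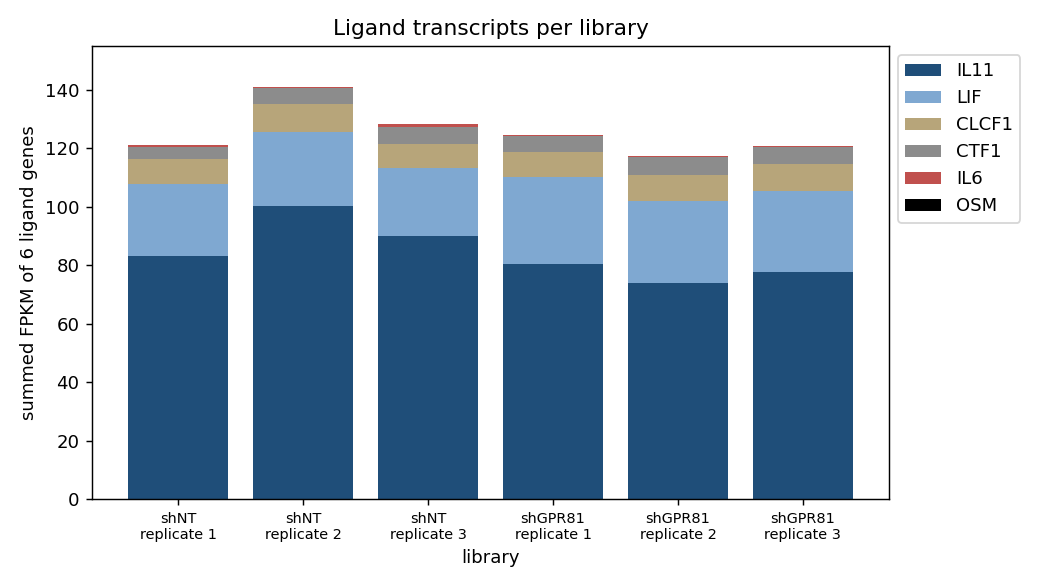
Summed FPKM of the 6 ligand genes (vertical axis) in each of the 6 libraries (horizontal axis), stacked by gene. IL11 makes up 68.7% to 71.1% of the sum in shNT and 62.9% to 64.7% in shGPR81, and IL6 and OSM are barely visible at this scale.

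Among the receptors, IL6ST encodes gp130, which transmits the signal of each of the 6 ligands. IL6ST was at 31.4, 27.9 and 25.5 FPKM in shNT and at 24.3, 25.8 and 23.1 FPKM in shGPR81. The groups overlapped, since shGPR81 replicate 2 lay slightly above shNT replicate 3. Its log2 fold change was -0.21 (SE 0.09, 95% interval -0.41 to -0.01, limma adjusted p = 0.238), and -0.13 without shNT replicate 1. LIFR was at 12.9, 11.9 and 11.0 FPKM in shNT and at 10.3, 10.8 and 10.3 FPKM in shGPR81. Here the groups did not overlap, but the lowest shNT library was close to the highest of shGPR81. The log2 fold change of LIFR was -0.19 (SE 0.08, 95% interval -0.36 to -0.01, limma adjusted p = 0.24). IL6ST (55230923 to 55290850) and LIFR (38474770 to 38608456) both lie on the minus strand of chromosome 5 (GRCh37). Over the 503 tested genes of this chromosome that averaged 1 FPKM or more the median log2 fold change was -0.0028.

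LIFR-AS1, an antisense RNA of LIFR, was at 0.547, 0.512 and 0.638 FPKM in shNT and at 0.256, 0.280 and 0.366 FPKM in shGPR81 (log2 fold change -0.74, SE 0.21, limma adjusted p = 0.0991). The libraries were stranded, but whether the strand was used in counting is not given in the sources used here, so reads of LIFR and LIFR-AS1 may be mixed where they overlap.

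The genes of the ligand-specific receptors were at low levels. IL6R was at 0.470, 0.409 and 0.431 FPKM in shNT and at 0.314, 0.220 and 0.279 FPKM in shGPR81, so that all shGPR81 libraries were below all shNT libraries. The log2 fold change was -0.54 (SE 0.21, 95% interval -1.03 to -0.05), and it did not pass the test (limma adjusted p = 0.214). IL11RA was at 0.479, 0.608 and 0.383 FPKM in shNT and at 0.716, 0.723 and 0.498 FPKM in shGPR81. Its groups overlapped and its log2 fold change was 0.34 with a wide 95% interval of -0.19 to 0.87 (limma adjusted p = 0.492). It was 0.21 without shNT replicate 3. The values of these genes were not whole multiples of 1 read. If the longest GENCODE transcript of each applied, they would stand for about 16 to 32 reads of IL6R and 13 to 26 reads of IL11RA in a library. The same estimate gives 12 to 35 reads for IL6, where the smallest whole numbers that fit were 4 to 12. The estimates may therefore be too high. The 95% intervals of IL6R and IL11RA come from the spread between libraries. They are wide and do not show which differences this depth could detect. IL6R lies on chromosome 1 from 154377669 to 154441926 and IL11RA on chromosome 9 from 34652159 to 34661899, both on the plus strand (GRCh37). IL6R-AS1 and PSMD8P1 overlap IL6R on the other strand and are not among the gene symbols. IL11RA overlaps a gene without a symbol on the same strand, and CCL27, listed at 0 in all libraries, on the other. Over the 419 tested genes of chromosome 9 that averaged 1 FPKM or more, the median log2 fold change was 0.089 and 27.4% were lower. The part of this shift in IL11RA was not tested.

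Over the 6 libraries, the tested genes with the values most like those of IL11 were GPRASP2, ATP6AP1 and FBXL16, with Pearson's r of 0.983, 0.982 and 0.981 on log2(FPKM + 0.1) among 11676 genes that averaged 1 FPKM or more. These are the highest of many correlations over 6 libraries that fall into 2 groups, and they are given as a description. ATP6AP1, an accessory subunit of the vacuolar proton pump, was at 28.0, 32.4 and 29.8 FPKM in shNT and at 26.9, 23.3 and 25.1 FPKM in shGPR81, with its highest value in shNT replicate 2 and its lowest in shGPR81 replicate 2, as IL11 had. LIF had an r of -0.63 with IL11.

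Of 9 further ligand and receptor genes of the family, 5 were tested and 0 passed both thresholds by limma. At an adjusted p alone there were 0, and the unadjusted p of OSMR and IL31RA was under 0.05. OSMR encodes the receptor subunit that pairs with gp130 for oncostatin M. It was the most abundant of the family receptor genes measured, at 49.0, 46.0 and 49.1 FPKM in shNT and at 41.5, 42.7 and 39.7 FPKM in shGPR81. The groups were well apart, but the log2 fold change of -0.22 (SE 0.05) did not pass (limma adjusted p = 0.0654). The ratio of OSMR to LIFR was 4.04 ± 0.369 in shNT and 3.94 ± 0.0921 in shGPR81 (SD, n = 3, exact permutation test, p = 0.9). IL31RA, which pairs with the OSMR product to bind IL31, was at 8.79, 8.79 and 8.64 FPKM in shNT and at 9.74, 11.1 and 10.4 FPKM in shGPR81 (log2 fold change 0.25, SE 0.07, limma adjusted p = 0.104). The genes IL27, IL31 and CNTFR were listed at 0 in all 6 libraries.

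Genes around the family were grouped in lists for the signal relay, its negative regulators, STAT3 and acute-phase targets, the shedding of IL6R, and regulators of the IL6 and IL11 transcripts. Together with the further ligands and receptors these lists hold 80 genes, of which 66 were tested. A total of 1 gene was higher and 0 were lower past both thresholds (limma), where 0.955% of tested genes were higher and 1.59% lower. By adjusted p alone, 7 genes were under 0.05, 5 higher and 2 lower, and 5.13% of all tested genes were. SOCS2 and PTPN1 stayed under 0.05 when any library was left out, and the adjusted p of the other 5 rose to between 0.0522 and 0.159 without any 1 of the shGPR81 libraries. Leaving out shNT replicate 2 had the same outcome for BCL3, TIMP1, JUN and FOSL1 (0.0789 to 0.0961), and so did leaving out shNT replicate 3 for RHBDF1, JUN and FOSL1 (0.0556 to 0.0607). The median log2 fold change over the 66 genes was -0.03.

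**Figure D4:**
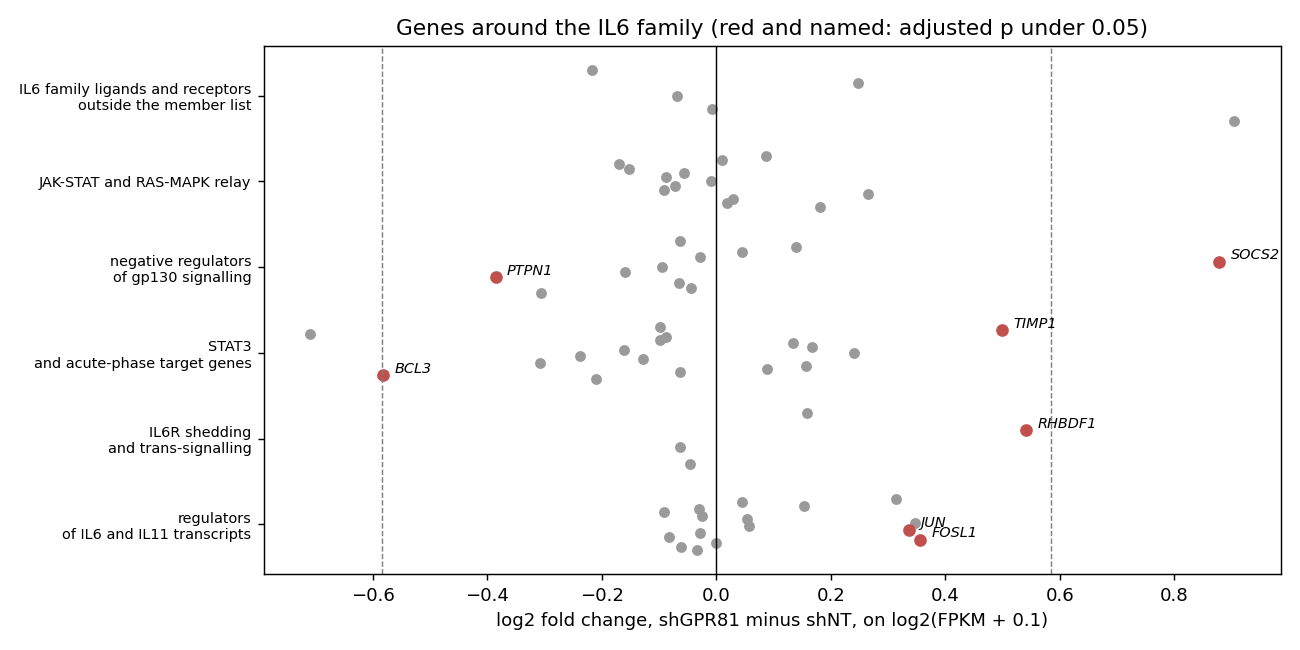
Log2 fold change of shGPR81 minus shNT on the log2(FPKM + 0.1) scale (horizontal axis) for the 66 tested genes of 6 lists (vertical axis), spread within each list to separate the points. Red named points have an adjusted p under 0.05 and dashed lines mark a fold change of 1.5. SOCS2, at 0.88, is the 1 red point beyond a dashed line.

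SOCS2 encodes a suppressor of cytokine signalling best known for restraining growth hormone signals. It was at 8.06, 7.66 and 7.78 FPKM in shNT and at 15.0, 14.1 and 14.3 FPKM in shGPR81. The groups were far apart compared with the spread within them. SOCS2 rose by 0.88 on the log2 scale (SE 0.06, limma adjusted p = 0.00073) and passed both thresholds under all 13 alternative settings. PTPN1, a tyrosine phosphatase that acts on JAK kinases, was at 45.1, 46.7 and 46.4 FPKM in shNT and at 35.0, 35.5 and 35.3 FPKM in shGPR81. Its log2 fold change of -0.39 (SE 0.04, limma adjusted p = 0.0038) lay below the threshold on the fold change. PTPN1 is on chromosome 20, where the median log2 fold change over 308 genes that averaged 1 FPKM or more was also -0.39 and 93.5% of them were lower. The other 9 tested negative regulators did not have an adjusted p under 0.05. Among them was SOCS3, the feedback inhibitor of gp130, which is named here for its role: it was at 22.2, 26.8 and 26.3 FPKM in shNT and at 23.9, 24.6 and 25.1 FPKM in shGPR81 (log2 fold change -0.03, 95% interval -0.22 to 0.16, limma adjusted p = 0.893).

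In the signal relay, 0 of 13 tested genes had an adjusted p under 0.05 (limma), and 1, STAT5B, was under 0.05 before adjustment. The most abundant was PTPN11, the phosphatase that links gp130 to the MAPK cascade, at 74.7 ± 5.09 FPKM in shNT and 70.0 ± 2.49 FPKM in shGPR81 (SD, n = 3). The lowest and highest log2 fold changes among the genes that averaged 1 FPKM or more were those of STAT5B (-0.17, SE 0.06) and JAK2 (0.26, SE 0.26). That of JAK2 was 0.53 without shNT replicate 1 and 0.045 without shNT replicate 2. JAK2 is on chromosome 9, where the median log2 fold change over 419 genes that averaged 1 FPKM or more was 0.089. STAT3, named for its role, was at 40.0 ± 0.764 FPKM in shNT and 38.5 ± 0.488 FPKM in shGPR81 (SD, n = 3), with a 95% interval of the log2 fold change of -0.16 to 0.05 (limma adjusted p = 0.586).

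Of 17 tested STAT3 and acute-phase target genes, 2 had an adjusted p under 0.05. BCL3, which encodes an atypical IkB protein, was at 9.10, 10.5 and 11.2 FPKM in shNT and at 6.33, 7.28 and 6.83 FPKM in shGPR81. Its log2 fold change of -0.58 (SE 0.10, limma adjusted p = 0.0168) fell just short of the threshold on the fold change, and it passed both thresholds under 3 of 13 alternative settings. TIMP1, an inhibitor of metalloproteases, was at 236.2, 291.6 and 301.6 FPKM in shNT and at 385.8, 371.1 and 410.2 FPKM in shGPR81 (log2 fold change 0.50, SE 0.10, limma adjusted p = 0.028). The groups did not overlap in either gene, and they lay apart in opposite directions. The acute-phase genes CRP, HP and SERPINA3 were listed at 0 in all 6 libraries. SAA1 (0 to 0.659 FPKM) and FGB (0.0845 to 0.167 FPKM) were detected at low levels (limma adjusted p = 0.634 and 0.719). LBP was at 0.0859 to 0.294 FPKM in shNT and at 0 to 0.0401 FPKM in shGPR81. FGG was at 0.0499 to 0.189 FPKM in shNT and at 0 to 0.0466 FPKM in shGPR81. LBP and FGG were too low to be tested.

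Both proteases that release IL6R from the cell surface were well expressed, ADAM10 at 29.1 ± 2.77 and 28.1 ± 0.917 FPKM and ADAM17 at 20.8 ± 0.932 and 19.9 ± 0.818 FPKM in shNT and shGPR81 (SD, n = 3). Neither had an adjusted p under 0.05 (0.803 and 0.654, limma). RHBDF1, which encodes an inactive rhomboid protein that escorts ADAM17 to the cell surface, was at 6.27, 7.29 and 5.72 FPKM in shNT and at 9.68, 8.72 and 9.72 FPKM in shGPR81. The log2 fold change was 0.54 (SE 0.10, limma adjusted p = 0.0276), below the threshold on the fold change. Without shNT replicate 2 it was 0.63 and passed both.

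Among 16 tested regulators of IL6 and IL11 transcripts, 2 had an adjusted p under 0.05, FOSL1 and JUN, which encode subunits of AP-1. FOSL1 was at 150.9, 177.7 and 177.4 FPKM in shNT and at 203.2, 217.7 and 225.1 FPKM in shGPR81 (log2 fold change 0.36, SE 0.08, limma adjusted p = 0.0436). JUN, named after its values were seen, was at 41.0, 45.4 and 45.0 FPKM in shNT and at 52.8, 53.7 and 59.6 FPKM in shGPR81 (log2 fold change 0.34, SE 0.07, limma adjusted p = 0.0326). Both genes were higher in all shGPR81 libraries than in any shNT library. FOS and JUNB, AP-1 genes held in the list of STAT3 targets, had overlapping groups and did not pass (log2 fold changes 0.24 and 0.17, limma adjusted p = 0.579 and 0.612). The most abundant gene of this list was HNRNPD, an RNA-binding protein, at 249.1 ± 8.27 and 235.1 ± 6.60 FPKM (SD, n = 3), and the lowest log2 fold change was that of SMAD3 (-0.09, SE 0.06).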

How the data were processed

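The deposited table holds FPKM, 1 value per gene symbol and library. The libraries (TruSeq stranded mRNA) had been sequenced from 1 end over 75 bases. The submitters' processing notes name TopHat2 2.0.13, Bowtie2 2.2.3, SAMtools 0.1.19 and Cuffnorm 2.2.1. The labels give the mouse genome mm10, whereas the paper states hg19, and the gene symbols are human. The annotation and the use of strand in counting are not given in the sources used here. Cuffnorm rescales libraries and shares reads among isoforms, so FPKM of genes with several transcripts depend on that estimate.

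Groups were compared on log2(FPKM + 0.1) by limma 3.58.1 (lmFit and eBayes with trend, R 4.3.3) over the 14349 genes that reached 0.1 FPKM in 3 or more of the 6 libraries, with no block. Calls needed a Benjamini-Hochberg adjusted p under 0.05 together with a fold change over 1.5, as in the study. The fit was tested on simulated data. A fold change on this scale understates the change of low genes. Exact permutation tests were two-sided. Reads were recovered for 4090 of 15931 genes whose FPKM were whole multiples of 1 step within a relative tolerance of 0.0001. The smallest whole numbers that fit were taken as reads. Loci are from GENCODE release 44 on GRCh37.

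All members were named. From each list, genes past both thresholds, the most abundant gene, and the largest rise and fall among genes averaging 1 FPKM or more were named, as were the 3 genes most like IL11. The members and lists were chosen with earlier results of these data known. Alternatives were a replicate block, each library left out, no filter or a filter of 1 FPKM, a pseudocount of 1 or 0.01, median centring and quantile normalization. Libraries of the same replicate number were not taken as pairs (correlations of 0.0058 to 0.12 between their deviations from the group means). Some genes of the lists are not reported here.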

Additional observations from a re-analysis of the deposited data

How the results depend on the processing

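None of the IL6 family members was called under any of the 13 alternative settings of the limma fit, and 113 of their 114 alternative values kept their direction. The exception was CLCF1, whose log2 fold change was -0.0045 without shNT replicate 3 and ranged from there to 0.11 over the fits that left out 1 library. IL6, IL6R and IL11RA could not be fitted with a filter of 1 FPKM. Adjusted p ranged from 0.0815 to 0.258 for IL6, from 0.0366 (when shNT replicate 1 was left out, and still short of a 1.5-fold change) to 0.359 for IL11 and from 0.0746 to 0.274 for LIF. The log2 fold change of ADAM10 ranged from -0.10 to 0.029 over these fits and was above 0 without shNT replicate 1. Of the list genes, 1 was lower (BCL3) with a pseudocount of 0.01, with median centring and without shNT replicate 1, and 2 were higher without shNT replicate 2. Over all tested genes 228 were lower and 137 higher. These counts were 142 and 75 with a pseudocount of 1, and with single libraries left out they ranged from 121 to 256 and from 65 to 152. In those fits the list genes numbered 0 to 1 lower and 1 to 2 higher, and the difference in the share of IL11 was -6.69 to -5.51 percentage points. With the replicate number as a block 197 genes were lower and 115 higher, and no call of a member or list gene past both thresholds changed. By adjusted p alone RHBDF1 was at 0.0634 with this block, and TIMP1, JUN and FOSL1 were at 0.0568, 0.0504 and 0.0729 without the filter. FOSL1 was at 0.0528 with median centring. Same-numbered libraries did not deviate together in every case (correlations of 0.12, 0.022 and 0.0058 across genes), so the numbers are not taken as a pairing. Depth limits IL6, IL6R, IL11RA and OSM, and intervals from reads cover counting error only.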
